A study of Mus musculus with 20 samples.

Results

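The genes described here are 38 known imprinted genes of the mouse, chosen by symbol, and 37 of them have an entry in the table of 40440 gene entries. The counts of Snrpn were not analysed here, though its promoter is among those read below. By common knowledge of their imprinting, 21 of the 38 are expressed from the paternal copy and 15 from the maternal copy, and no allele is stated for Casd1 and Begain. The list was drawn up with earlier results of these libraries in view, so the differences after surgery below describe these libraries and carry no independent support. The mice were C57BL/6J males that went from chow to a high-fat diet after surgery, at an age of 8 to 9 months, and both liver and subcutaneous adipose tissue (SAT) were sequenced. In the VAT removed groups the epididymal fat pads, a depot of visceral adipose tissue (VAT), were taken out. In the sham groups the abdomen was opened and the pads were left in place. Each of the 4 groups (sham liver, VAT removed liver, sham SAT and VAT removed SAT) has 5 libraries. The labels do not say that each library is a different mouse, so errors and p-values measure the spread between these libraries.

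Genomic imprinting silences a gene on the chromosome inherited from a given parent. Methylation laid down in the egg or the sperm marks a control region, which then sets the expression of a whole cluster of neighbours. Many imprinted genes act on growth: paternally expressed members often promote it and maternally expressed members often restrain it. In adipose tissue imprinted genes are known for roles in preadipocytes and in fat expansion, and in liver many are switched off after birth. The mice are inbred and the counts are totals over both copies of a gene, so they say nothing of which allele was read.

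Promoters were read from RefSeq on GRCm38.p6 because imprinting control acts through CpG methylation, and 32 of the 38 genes had an entry there. The 250 bases before the start are shown for the members whose levels the results turn on, with each CpG dinucleotide in capitals. The windows are chr7:6730420-6730669 on the minus strand for Peg3, chr7:6696433-6696682 on the minus strand for Zim1, chr10:13090582-13090831 on the plus strand for Plagl1 and chr12:109540746-109540995 on the plus strand for the first of the Meg3 entries.
Peg3: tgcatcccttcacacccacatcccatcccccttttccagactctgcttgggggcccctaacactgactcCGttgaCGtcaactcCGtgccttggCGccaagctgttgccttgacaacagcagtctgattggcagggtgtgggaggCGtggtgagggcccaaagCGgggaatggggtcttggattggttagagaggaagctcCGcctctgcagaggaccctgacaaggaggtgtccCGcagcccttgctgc
Zim1: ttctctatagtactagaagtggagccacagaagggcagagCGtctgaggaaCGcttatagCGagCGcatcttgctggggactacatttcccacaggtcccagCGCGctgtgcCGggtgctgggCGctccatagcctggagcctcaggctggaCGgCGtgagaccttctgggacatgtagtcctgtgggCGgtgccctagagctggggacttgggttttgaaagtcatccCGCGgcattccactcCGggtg
Plagl1: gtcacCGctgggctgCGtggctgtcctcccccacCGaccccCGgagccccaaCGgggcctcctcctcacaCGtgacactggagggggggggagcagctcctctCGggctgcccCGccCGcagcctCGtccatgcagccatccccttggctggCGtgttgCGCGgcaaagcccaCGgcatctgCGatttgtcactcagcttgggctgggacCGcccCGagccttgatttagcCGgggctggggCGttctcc
Meg3: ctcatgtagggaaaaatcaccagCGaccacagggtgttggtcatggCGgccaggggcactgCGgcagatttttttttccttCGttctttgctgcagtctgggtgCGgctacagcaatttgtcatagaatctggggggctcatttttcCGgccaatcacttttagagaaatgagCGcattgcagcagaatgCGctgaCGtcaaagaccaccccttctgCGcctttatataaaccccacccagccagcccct
These windows held 8 CpG for Peg3, 14 for Zim1, 19 for Plagl1 and 10 for Meg3. The median over the 32 members was 9, beside 6 over the first entry of all 27025 genes. At least 10 CpG stood in 16 of 32 members, 50% against 38.2% of all genes. GCCAT, the core of the YY1 motif, was searched on both strands and stood in 14 of 32 members, 43.8% against 32.9% of all genes. TATAAA, also on both strands, stood in 6 of 32, 18.8% against 13.0%. The first Meg3 window and the Plagl1 window hold GCCAT, and the Meg3 window also holds TATAAA. No methylation was measured here. Peg3 and Usp29 lie head to head: 163 bases separate the starts at 6730419 and 6730583, and their windows share those 163 bases. Peg3 averaged 244 CPM (the count scaled to library size) in sham SAT, while Usp29, which encodes a ubiquitin protease, had 0 counts in all 5 of those libraries. A count of 0 in a library allows up to 3 reads by counting error.

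The libraries held 20307159 to 43618452 counts. CPM values of the surgery comparisons were scaled by TMM within each tissue, so they are compared within a tissue only. Imprinted genes made up 0.176 to 0.189% of counts in sham liver, 0.179 to 0.220% in VAT removed liver, 0.256 to 0.315% in sham SAT and 0.266 to 0.407% in VAT removed SAT. Some SAT libraries stood apart by markers of other cells. The 14 lymphocyte and lymph node markers summed to 810 to 1902 CPM in sham SAT and 437 to 891 CPM in VAT removed SAT. Sham libraries 3 and 4 held the most, with 1683 and 1902 CPM, against at most 1346 CPM in the other 8. The mean over these markers on the log2(CPM + 0.5) scale was 5.58 and 5.59 in those libraries, against 0.91 to 1.60 in the other 8. The median log2 difference of the 13 tested was -4.11 (13 of 13 lower in VAT removed SAT, none called by edgeR), and -0.02 without sham SAT 3 and 4. In these same libraries 3 and 4 the summed adipocyte markers came to 14743 and 13101 CPM, against 19993 to 28954 CPM in the other SAT libraries. The 12 skeletal muscle markers summed to 2344 CPM in sham SAT library 2, to 1142 CPM in VAT removed SAT library 1 and to 26679 CPM in VAT removed SAT library 2, against 16.3 to 282 CPM in the other 7. Liver libraries held at most 1.57 CPM of them. Albumin, the defining hepatocyte gene, was at least 32476 CPM in every liver library and at most 31.1 CPM in SAT. Results are given with and without sham SAT 3 and 4, and in bulk tissue fewer cells of a type and less RNA per cell cannot be told apart.

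**Figure D1:**
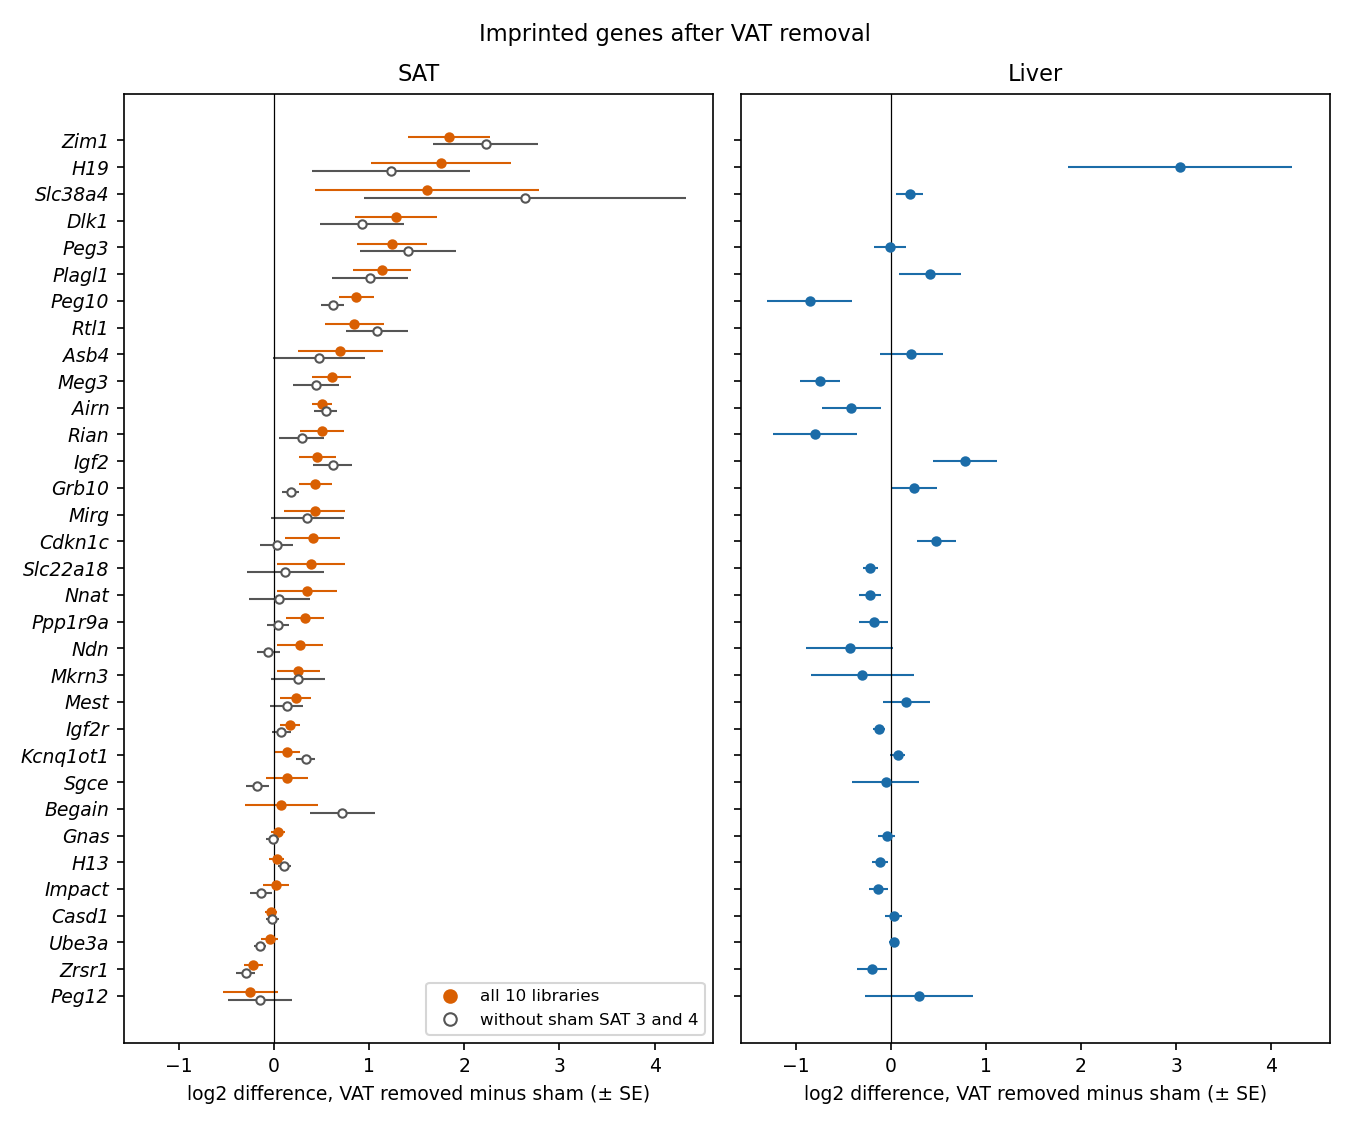
Log2 difference (VAT removed minus sham, 5 libraries per group) of each tested imprinted gene in SAT and in liver; points are estimates of the edgeR fit, bars are 1 SE and open points leave out sham SAT 3 and 4. In SAT 29 of 33 filled points lie to the right of 0 and in liver 12 of 28 do.

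In SAT the imprinted genes were mostly higher in the VAT removed libraries, but none passed the test over all genes. Of the 33 members with enough counts to be tested, 29 had a positive log2 difference and 4 a negative one, with a median of 0.39, beside a median of -0.0020 and 49.7% positive over all 18530 genes tested. edgeR called 0 members and 0% of all genes at an adjusted p of 0.05. At an unadjusted p under 0.05 there were 11 members higher and 1 lower, beside 4.38% of all genes higher and 6.27% lower. The split was 25 to 8 and the median 0.25 without sham SAT 3 and 4, with 8 members higher and 2 lower at the unadjusted threshold, beside 4.7% and 4.07% of all genes. DESeq2 on the same counts called Zim1, Peg10, Airn and Plagl1 higher, with adjusted p of 0.00651, 0.0101, 0.0101 and 0.0353, among 51 genes called higher (0.275%); it called 0.572% of all genes lower, none of them a member. limma-voom called none, and 0% of all genes. Since the list was chosen with these results known, nothing is read from its counts against those shares.

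Split by the copy that common knowledge names as expressed, most members of either kind were higher in SAT. The copy read in these libraries was not measured and may differ from that label. Of 17 paternally expressed members tested, 15 were higher, with a median of 0.34. Of 14 maternally expressed members, 13 were higher, with a median of 0.42. Leaving out sham SAT 3 and 4 gave 12 of 17 with a median of 0.33 for the paternally expressed members, and 12 of 14 with a median of 0.15 for the maternally expressed members. No test of the difference between these sets was made. The levels of VAT removed and sham SAT did not overlap in 3 members, Plagl1, Airn and Peg10, all higher after VAT removal, beside 0.831% of all genes. No member was lower without overlap, beside 0.61% of all genes. Leaving out sham SAT 3 and 4 gave 6 (Plagl1, Rtl1, Airn, Peg10, Zim1 and Kcnq1ot1), beside 3.19% of all genes higher and 2.83% lower.

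**Figure D2:**
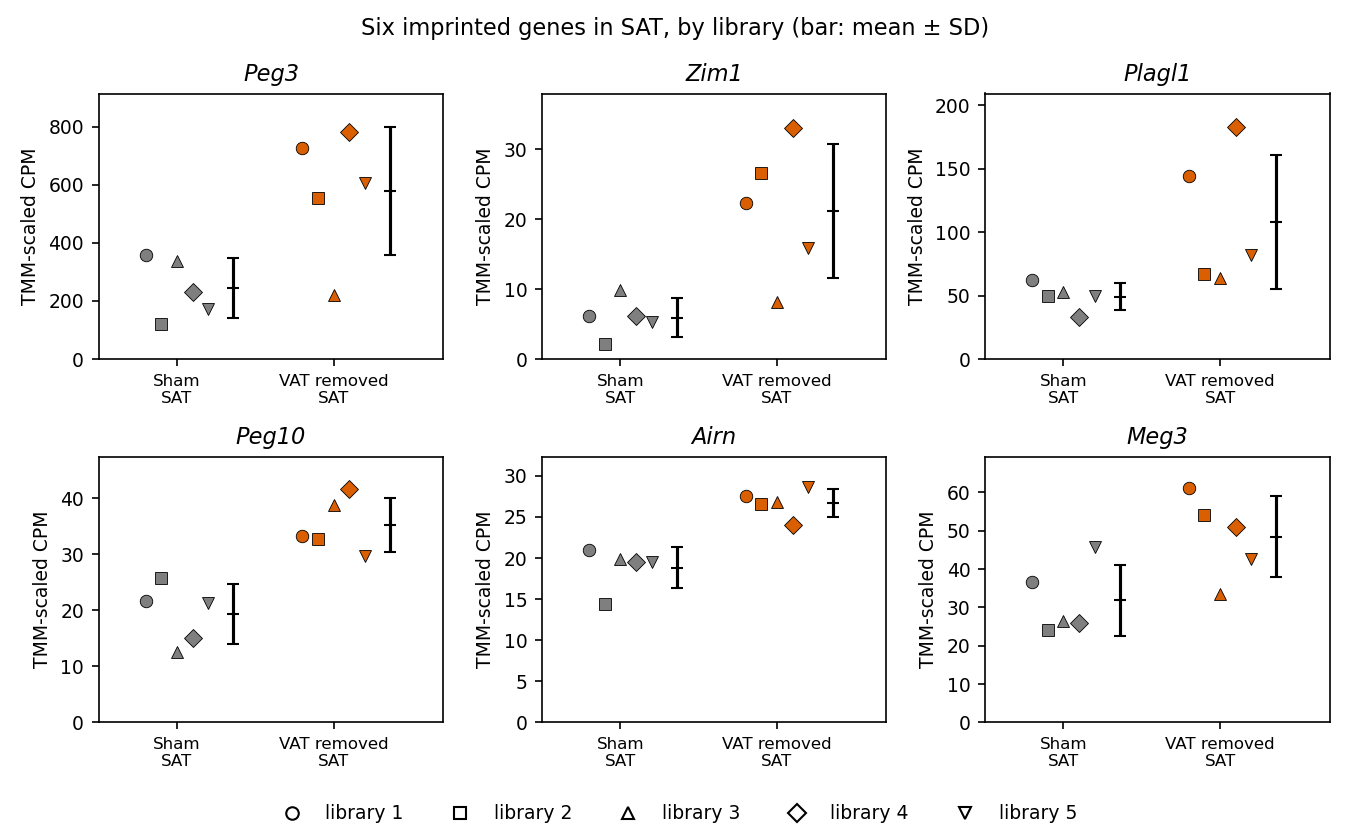
TMM-scaled CPM of 6 imprinted genes in each of the 10 SAT libraries, with the mean and SD of each group beside the points. VAT removed library 3 lies among the sham libraries for Peg3, Zim1 and Meg3, while all 5 VAT removed libraries lie above the sham libraries for Plagl1, Airn and Peg10.

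Both tested genes of the Peg3 cluster on chromosome 7 were higher in most VAT removed libraries. Peg3 is a paternally expressed zinc finger transcription factor, annotated by GENCODE M21 (GRCm38) at 6703892 to 6730431 on the minus strand. Its level in sham SAT was 359, 122, 337, 232 and 172 CPM in libraries 1 to 5, and in VAT removed SAT 726, 554, 221, 784 and 606 CPM. VAT removed library 3 was within the sham range and the other 4 were above every sham library. The log2 difference was 1.24 ± 0.37 (SE, 5 libraries per group, edgeR adjusted p = 0.431). It was 1.41 ± 0.50 without sham SAT 3 and 4.

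Zim1, a maternally expressed zinc finger gene just downstream of Peg3 at 6671269 to 6696450, followed the same libraries at a much lower level. It stood at 6.14, 2.10, 9.88, 6.15 and 5.37 CPM in sham SAT and at 22.3, 26.7, 8.09, 33.0 and 15.9 CPM in VAT removed SAT. VAT removed library 3 was again the lowest of its group and was below sham library 3, so the groups overlapped by that pair. The log2 difference was 1.84 ± 0.43 (adjusted p = 0.431 by edgeR), and 2.22 ± 0.55 without sham SAT 3 and 4. Usp29, the third member of the cluster, was at most 0.183 CPM in any SAT library and was not tested.

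Plagl1, a zinc finger factor expressed from the paternal copy and known to regulate other imprinted genes, lies on chromosome 10 at 13060504 to 13131694. Sham SAT held 61.9, 49.3, 52.8, 33.0 and 49.3 CPM, and VAT removed SAT held 144, 67.3, 64.2, 183 and 82.1 CPM. Every VAT removed library was above every sham library, with libraries 1 and 4 far above the other 3, the same 2 that were highest for Peg3. The log2 difference was 1.13 ± 0.30 (edgeR adjusted p = 0.431), and 1.01 ± 0.40 without sham SAT 3 and 4. Cdkn1c, a maternally expressed inhibitor of cyclin-dependent kinases, averaged 13.0 ± 6.38 CPM (SD, n = 5) in sham and 17.3 ± 2.25 CPM in VAT removed SAT. Its log2 difference of 0.41 ± 0.29 was 0.03 ± 0.18 without sham SAT 3 and 4, which held 7.06 and 7.35 CPM.

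Peg10, a paternally expressed gene derived from a retrotransposon, and its neighbours on chromosome 6 differed from each other. Peg10 was at 21.7, 25.7, 12.6, 15.1 and 21.4 CPM in sham SAT and at 33.3, 32.8, 38.7, 41.6 and 29.6 CPM in VAT removed SAT. The groups did not overlap, and sham libraries 3 and 4 were the lowest of all 10. The log2 difference was 0.87 ± 0.19 (edgeR adjusted p = 0.431), and 0.62 ± 0.12 without sham SAT 3 and 4. Sgce, which encodes epsilon-sarcoglycan and also lies next to Peg10, averaged 47.0 ± 15.6 CPM in sham and 51.6 ± 8.42 CPM in VAT removed SAT, a log2 difference of 0.14 ± 0.22 that had the opposite sign, -0.18 ± 0.12, without sham SAT 3 and 4. Ppp1r9a, the gene of the actin-binding protein neurabin, had a log2 difference of 0.33 ± 0.20, which was 0.04 ± 0.11 without sham SAT 3 and 4. Asb4, an adaptor of a ubiquitin ligase, had 0.69 ± 0.45, or 0.47 ± 0.48 without those libraries. Casd1, which acetylates sialic acids, had -0.03 ± 0.06, with all 10 SAT libraries between 27.6 and 31.8 CPM.

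The insulin-like growth factor members include a ligand, a receptor that clears it and an adaptor that damps its signal. Igf2, the paternally expressed growth factor, stood at 9.49, 9.07, 13.1, 10.5 and 8.66 CPM in sham SAT and at 14.2, 15.0, 8.47, 13.6 and 18.5 CPM in VAT removed SAT. VAT removed library 3 was the lowest of all 10, and the other 4 were above all sham libraries. Its log2 difference was 0.46 ± 0.19 (edgeR adjusted p = 0.446), and 0.62 ± 0.21 without sham SAT 3 and 4. H19, the maternally expressed noncoding RNA that shares enhancers with Igf2, was at 1.48, 6.61, 0.515, 1.21 and 1.85 CPM in sham and at 4.31, 19.0, 3.06, 3.14 and 10.1 CPM in VAT removed SAT. Library 2 was the highest in both groups. The skeletal muscle markers summed to 2344 CPM in sham library 2 and 26679 CPM in VAT removed library 2, the most in each group, and to 35.4 CPM in VAT removed library 5. Their part in the levels of H19 was not tested. The log2 difference of H19 was 1.75 ± 0.74 in all libraries, 1.23 ± 0.83 without sham SAT 3 and 4, 1.12 without VAT removed library 2 and 2.64 without sham library 2. It was 2.11 without the 3 libraries with over 1000 CPM of muscle markers.

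**Figure D3:**
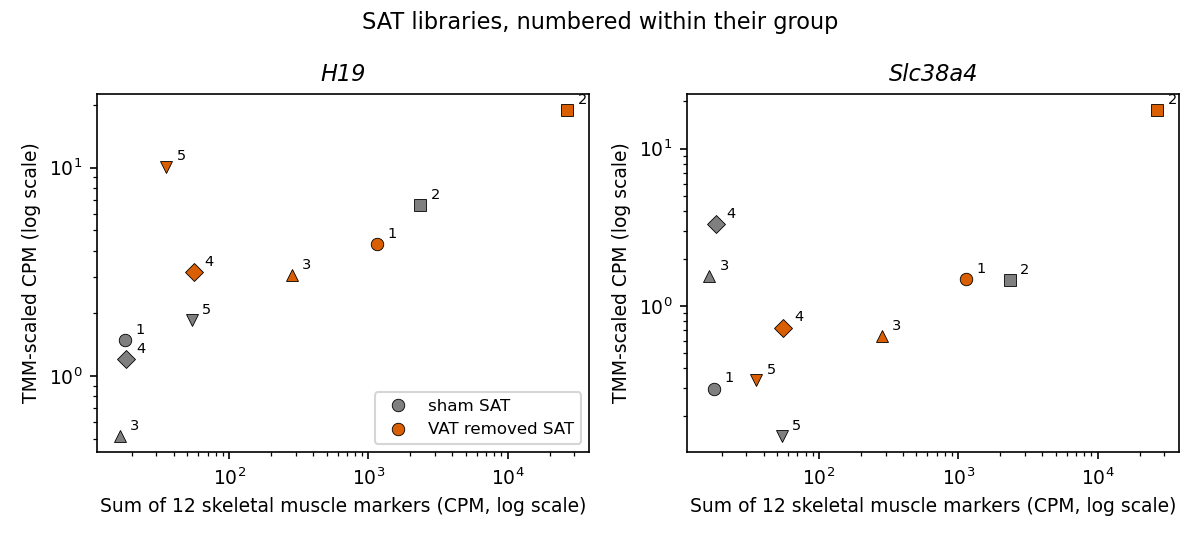
TMM-scaled CPM of H19 and Slc38a4 (log scales) against the summed CPM of 12 skeletal muscle markers in the 10 SAT libraries. VAT removed library 2, with 26679 CPM of muscle markers, has the highest level of both genes: 19.0 CPM of H19 and 17.7 CPM of Slc38a4.

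Airn is the paternally expressed noncoding RNA that runs antisense through Igf2r and silences it on that chromosome. Airn stood at 21.0, 14.4, 19.8, 19.5 and 19.5 CPM in sham SAT and at 27.5, 26.6, 26.8, 24.0 and 28.7 CPM in VAT removed SAT. The groups did not overlap, and the VAT removed libraries were close together. Its log2 difference was 0.50 ± 0.11 (edgeR adjusted p = 0.431), and 0.54 ± 0.12 without sham SAT 3 and 4. Igf2r, the maternally expressed receptor that carries the ligand to lysosomes, stood at 248, 199, 189, 206 and 243 CPM in sham SAT and 223, 269, 255, 233 and 236 CPM in VAT removed SAT. These ranges overlapped, and the log2 difference was 0.16 ± 0.10, or 0.08 ± 0.10 without sham SAT 3 and 4. The sources used here do not give the strand setting of the counting, so reads of Airn and Igf2r cannot be told apart where they overlap. Grb10, a maternally expressed adaptor that damps insulin and growth factor receptors, stood at 82.2, 101, 50.6, 57.7 and 92.3 CPM in sham SAT and 109, 109.6, 97.2, 110.0 and 93.9 CPM in VAT removed SAT. Sham libraries 3 and 4 were the lowest of the 10, and the log2 difference of 0.44 ± 0.18 was 0.17 ± 0.09 without them.

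All 6 tested genes of the Dlk1-Dio3 cluster on chromosome 12 had positive differences in SAT. Meg3, a maternally expressed long noncoding RNA at 109541001 to 109571726, was at 36.6, 24.2, 26.6, 25.9 and 45.8 CPM in sham and at 61.1, 54.0, 33.6, 50.9 and 42.5 CPM in VAT removed SAT. VAT removed libraries 3 and 5 were within the sham range. The log2 difference was 0.61 ± 0.21 (edgeR adjusted p = 0.431), and 0.44 ± 0.24 without sham SAT 3 and 4. Rtl1, a paternally expressed gene derived from a retrotransposon, stood at 2.02, 0.802, 3.00, 1.63 and 1.96 CPM in sham and at 3.79, 3.28, 2.44, 4.50 and 2.83 CPM in VAT removed SAT. Only sham library 3 reached into the VAT removed range, and the log2 difference was 0.84 ± 0.31, or 1.08 ± 0.33 without sham SAT 3 and 4. Dlk1, the preadipocyte factor that holds back adipocyte differentiation, was scarce, at 1.13, 0.852, 0.303, 0.452 and 0.518 CPM in sham SAT and 2.28, 1.97, 0.546, 1.45 and 1.77 CPM in VAT removed SAT. VAT removed library 3 was again within the sham range, and the log2 difference was 1.28 ± 0.43, or 0.92 ± 0.44 without sham SAT 3 and 4. The noncoding RNAs Rian and Mirg, hosts of small RNAs, had 0.50 ± 0.23 and 0.43 ± 0.32, and Begain had 0.08 ± 0.38. These were 0.29 ± 0.24, 0.35 ± 0.39 and 0.72 ± 0.34 without sham SAT 3 and 4. Dio3, the deiodinase that inactivates thyroid hormone, was below the count filter, with 0 to 32 reads per sham SAT library and 0 to 7 per VAT removed SAT library.

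Mest and Nnat, the most abundant of the imprinted genes in SAT, had overlapping levels in the sham and VAT removed libraries. Mest, a paternally expressed hydrolase-like gene known as a marker of fat expansion, stood at 919, 766, 705, 651 and 718 CPM in sham SAT and 813, 924, 797, 676 and 1197 CPM in VAT removed SAT (0.23 ± 0.16, or 0.13 ± 0.17 without sham SAT 3 and 4). Nnat, a paternally expressed membrane proteolipid of the endoplasmic reticulum, stood at 648, 693, 396, 271 and 477 CPM in sham SAT and 708, 398, 423, 1061 and 565 CPM in VAT removed SAT (0.34 ± 0.32). VAT removed library 4 was the highest of the 10, and without it the difference was 0.08. Sham libraries 3 and 4 were the lowest, and without them it was 0.06 ± 0.32. Of the genes of the Prader-Willi and Angelman region, Ndn (the growth suppressor necdin) had 0.27 ± 0.24, Mkrn3 0.26 ± 0.23 and Peg12 -0.25 ± 0.29. Ndn was -0.06 ± 0.12 without sham SAT 3 and 4. Ube3a, a maternally expressed ubiquitin ligase gene in neurons, stood at 113, 120.4, 97.7, 92.3 and 108 CPM in sham SAT and 101, 103, 103, 96.8 and 109.6 CPM in VAT removed SAT (-0.05 ± 0.09), and was -0.15 ± 0.07 without sham SAT 3 and 4. Magel2 had 1 read in all sham SAT libraries together and 0 in VAT removed SAT.

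The transporters and the remaining members completed the list in SAT. Slc38a4, a paternally expressed amino acid transporter, stood at 0.297, 1.45, 1.55, 3.31 and 0.148 CPM in sham and at 1.48, 17.7, 0.641, 0.726 and 0.335 CPM in VAT removed SAT. VAT removed library 2, the library with 26679 CPM of muscle markers, was alone above the sham range. The log2 difference of 1.61 ± 1.18 had the opposite sign, -0.78, without that library, and was 2.64 ± 1.69 without sham SAT 3 and 4. The transporter gene Slc22a18 had 0.39 ± 0.35, which was 0.10 without VAT removed library 4 and 0.12 ± 0.40 without sham SAT 3 and 4. Kcnq1ot1, the antisense RNA that silences the Cdkn1c and Slc22a18 neighbourhood on the paternal chromosome, stood at 164, 202, 255, 264 and 202 CPM in sham SAT and 237, 218, 225, 257 and 259 CPM in VAT removed SAT (0.14 ± 0.13). Sham libraries 3 and 4 held the most among the sham libraries, and without them its difference was 0.33 ± 0.10. Zrsr1, a paternally expressed splicing factor gene, was the member lower at the unadjusted threshold: it stood at 24.1, 23.3, 19.8, 19.0 and 19.2 CPM in sham SAT and 17.8, 17.8, 16.4, 19.9 and 18.7 CPM in VAT removed SAT (-0.22 ± 0.10, or -0.30 ± 0.10 without sham SAT 3 and 4). Impact, a regulator of the amino acid sensing kinase Eif2ak4, stood at 76.4, 65.0, 49.1, 52.5 and 61.6 CPM in sham SAT and 64.2, 57.3, 65.1, 50.3 and 71.8 CPM in VAT removed SAT (0.02 ± 0.13, or -0.14 ± 0.12 without sham SAT 3 and 4). H13, the signal peptide peptidase gene, and Gnas, the gene of the stimulatory G protein subunit, had differences of 0.03 ± 0.08 and 0.04 ± 0.07. Phlda2, a maternally expressed regulator of placental growth, had at most 2 reads in any SAT library.

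Markers of stromal and vascular cells also varied among the SAT libraries, and edgeR called none of them. The 13 markers of adipose progenitors and fibroblasts summed to 9715, 7386, 5742, 6001 and 8736 CPM in sham SAT and to 9288, 9325, 8409, 10901 and 9344 CPM in VAT removed SAT. Sham libraries 3 and 4 had the lowest sums. VAT removed library 4, which had the most Peg3, Zim1 and Plagl1, had the highest sum. That order did not hold for the mean over the same markers on the log2(CPM + 0.5) scale. By that mean VAT removed library 4 was the lowest of its group and was below sham libraries 1, 2 and 5. Sham libraries 3 and 4 were the lowest by either measure. The 10 adipocyte markers summed to 13101 to 28954 CPM in sham and 19993 to 26005 CPM in VAT removed SAT. Endothelial markers were higher in VAT removed SAT in 9 of 9 (median log2 difference 0.26), with sums of 951 to 1562 CPM in sham and 1397 to 1549 CPM in VAT removed SAT. Smooth muscle and pericyte markers were higher in 6 of 7 (median 0.31), with sums of 742 to 1039 CPM and 817 to 1223 CPM. Schwann cell and nerve markers were higher in 7 of 8 (median 0.52), with sums of 100.1 to 201 CPM and 99.2 to 346 CPM. Leaving out sham SAT 3 and 4 gave 8 of 9 (0.17), 5 of 7 (0.36) and 7 of 8 (0.28) for these lists. Progenitor and fibroblast markers were higher in 8 of 13 (median 0.08), and in 6 of 13 (-0.08) without those libraries. Adipocyte markers were higher in 10 of 10 (median 0.08), and in 1 of 10 (-0.20) without them. The part of these cell markers in the differences of the imprinted genes was not tested.

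**Figure D4:**
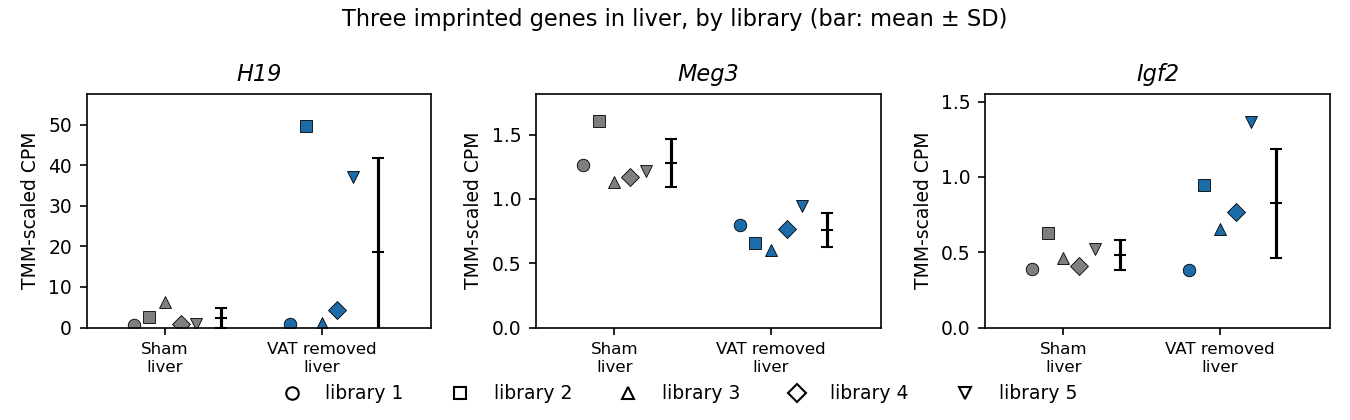
TMM-scaled CPM of H19, Meg3 and Igf2 in each of the 10 liver libraries, with the mean and SD of each group beside the points (the lower SD bars of H19 are clipped at 0). Meg3 lies between 0.605 and 0.944 CPM in the VAT removed libraries, all below the sham libraries, and H19 is high in VAT removed libraries 2 and 5 at 49.7 and 37.1 CPM.

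In liver the imprinted genes were split more evenly after VAT removal than in SAT. Of 28 members tested, 12 had a positive difference and 16 a negative one, with a median of -0.05. Over all 17078 genes the median was 0.01 and 52.2% were positive. edgeR called 0 members and 0% of all genes. At an unadjusted p under 0.05 there were 3 members higher (H19, Igf2 and Cdkn1c) and 2 lower (Meg3 and Slc22a18), beside 4.68% and 5.22% of all genes. DESeq2 called no member, beside 0.521% of all genes higher and 0.785% lower, and limma-voom called none, beside 0.00586% and 0.0117%. The groups did not overlap in 1 member, Meg3, which was lower, beside 1.5% of all genes lower without overlap. No member was higher without overlap, beside 0.937% of all genes.

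Meg3 was low in liver, with 32 to 56 reads per sham library and 12 to 36 per VAT removed library. It was at 1.27, 1.60, 1.13, 1.17 and 1.22 CPM in sham and at 0.799, 0.660, 0.605, 0.768 and 0.944 CPM in VAT removed liver. All 5 VAT removed libraries were below all 5 sham libraries, and the log2 difference was -0.75 ± 0.21 (edgeR adjusted p = 0.306). Its cluster neighbour Rian had -0.80 ± 0.44. Rtl1 had 2 to 10 reads per sham liver library and 0 to 2 per VAT removed liver library and was not tested there.

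H19 varied widely between liver libraries. It was at 0.703, 2.61, 6.38, 0.978 and 0.812 CPM in sham and at 0.895, 49.7, 1.21, 4.38 and 37.1 CPM in VAT removed liver. VAT removed libraries 2 and 5 stood above the rest and the other 3 were within the sham range. The log2 difference was 3.04 ± 1.17 (edgeR adjusted p = 0.442), and 2.27 without VAT removed library 2. The fibroblast markers summed to 561, 932, 699.8, 579.5 and 1066 CPM in sham liver and to 456, 1233, 516, 679 and 958 CPM in VAT removed liver, where libraries 2 and 5 held the most. The 9 hepatic stellate markers summed to 551 to 777 CPM in sham and 549 to 954 CPM in VAT removed liver, highest in VAT removed library 2, and 9 of 9 were higher after VAT removal (median 0.19, none called by edgeR). The part of these markers in the levels of H19 and Igf2 was not tested. Igf2 was at 0.387, 0.630, 0.461, 0.410 and 0.522 CPM in sham and at 0.384, 0.947, 0.656, 0.768 and 1.36 CPM in VAT removed liver. The 2 VAT removed libraries with the most H19 also held the most Igf2. The log2 difference of Igf2 was 0.78 ± 0.34, and its counts in both groups were low, under 2 CPM. Cdkn1c stood at 2.04, 2.89, 2.48, 2.68 and 2.61 CPM in sham liver and 4.79, 2.93, 2.67, 4.61 and 2.73 CPM in VAT removed liver. All 5 VAT removed libraries were above the sham mean, though not above every sham library, and the log2 difference was 0.48 ± 0.21.

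The abundant imprinted genes of liver differed little. Slc38a4 stood at 1202, 978, 1166, 1295 and 973 CPM in sham liver and 1263, 968, 1535, 1486 and 1192 CPM in VAT removed liver (0.20 ± 0.14). Slc22a18 stood at 111, 121, 120.0, 114 and 135 CPM in sham liver and between 94.2 and 112 CPM in VAT removed liver. All 5 VAT removed libraries were below the sham mean, with 1 above the lowest sham library, and the log2 difference was -0.21 ± 0.08. Igf2r stood at 136, 136, 155, 145 and 147 CPM in sham liver and 127, 139, 123, 133 and 136 CPM in VAT removed liver (-0.13 ± 0.06). H13 stood at 97.2, 97.7, 94.1, 89.4 and 98.0 CPM in sham liver and 83.3, 77.2, 108, 83.4 and 88.7 CPM in VAT removed liver (-0.11 ± 0.09), and Casd1 at 24.8, 26.5, 22.7, 24.4 and 21.7 CPM in sham liver and 25.2, 23.0, 29.3, 23.8 and 21.5 CPM in VAT removed liver (0.03 ± 0.09). The groups overlapped for both. Nnat stood at 7.49, 6.16, 6.70, 6.60 and 6.99 CPM in sham liver and 6.84, 5.88, 5.75, 5.61 and 5.09 CPM in VAT removed liver (-0.22 ± 0.11). Peg10, higher in SAT, had -0.85 ± 0.44 in liver, and Peg3 had -0.0048 ± 0.17. Plagl1 had 0.41 ± 0.33, Grb10 0.25 ± 0.24, Airn -0.41 ± 0.31 and Mest 0.16 ± 0.25. Impact, Kcnq1ot1, Ube3a, Gnas and Zrsr1 lay between -0.20 and 0.08.

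The difference in response between the tissues was tested in a fit of all 20 libraries, which shares its libraries with the comparisons above. It estimates a spread per gene shared by both tissues, unlike the separate fits of each tissue, and its errors and p-values rest on that. edgeR called 0 of 33 members and 0% of 19954 genes. At an unadjusted p under 0.05 there were 7 members with a higher response in SAT and none with a lower one, beside 3.61% and 6.51% of all genes. At any p, 26 of 33 had a higher response in SAT, beside 46.0% of all genes. Without sham SAT 3 and 4 this was 22 of 33, beside 48.4% of all genes. At the unadjusted threshold 6 were then higher and 1 lower. Meg3 had a log2 response in SAT minus that in liver of 1.34 ± 0.28 (edgeR adjusted p = 0.288), Rtl1 of 3.01 ± 0.74 (adjusted p = 0.288 by edgeR) and Peg10 of 1.70 ± 0.50 (edgeR adjusted p = 0.313). Rtl1 rests on 25 reads in all sham liver libraries and 5 in all VAT removed liver libraries. These values were 1.17 ± 0.29, 3.24 ± 0.77 and 1.45 ± 0.52 without sham SAT 3 and 4. DESeq2 called Meg3 and Rtl1 with adjusted p of 0.0178 and 0.0396, beside 0.155% of all genes called with a higher response in SAT and 0.466% with a lower one. limma-voom called none, and 0% of all genes.

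The sham libraries were also compared between tissues, in a fit of their own and on its own CPM scale. Of 33 members tested, edgeR called 23 higher in SAT and 5 lower, beside 35.3% and 29.7% of all 18449 genes. The median log2 difference of the members was 1.76, beside 0.11 over all genes. Per kilobase of exon, the leading imprinted genes of sham SAT were Nnat at 229 ± 81.5 CPM per kb and Mest at 160 ± 22.4 CPM per kb, followed by Igf2r at 19.6 ± 2.54, Peg3 at 15.4 ± 6.43, Impact at 9.99 ± 1.82 and H13 at 9.92 ± 0.734. Of these neighbours in the order, only Mest and Igf2r stood apart by more than the sum of their SDs. In sham liver Slc38a4 led at 321 ± 44.5 CPM per kb, followed by Slc22a18 at 86.1 ± 5.65, Igf2r at 18.8 ± 1.06, H13 at 13.1 ± 0.372, Casd1 at 7.24 ± 0.598 and Zrsr1 at 5.61 ± 1.15. Each was above the next by more than the sum of their SDs, except Casd1 and Zrsr1.

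**Figure D5:**
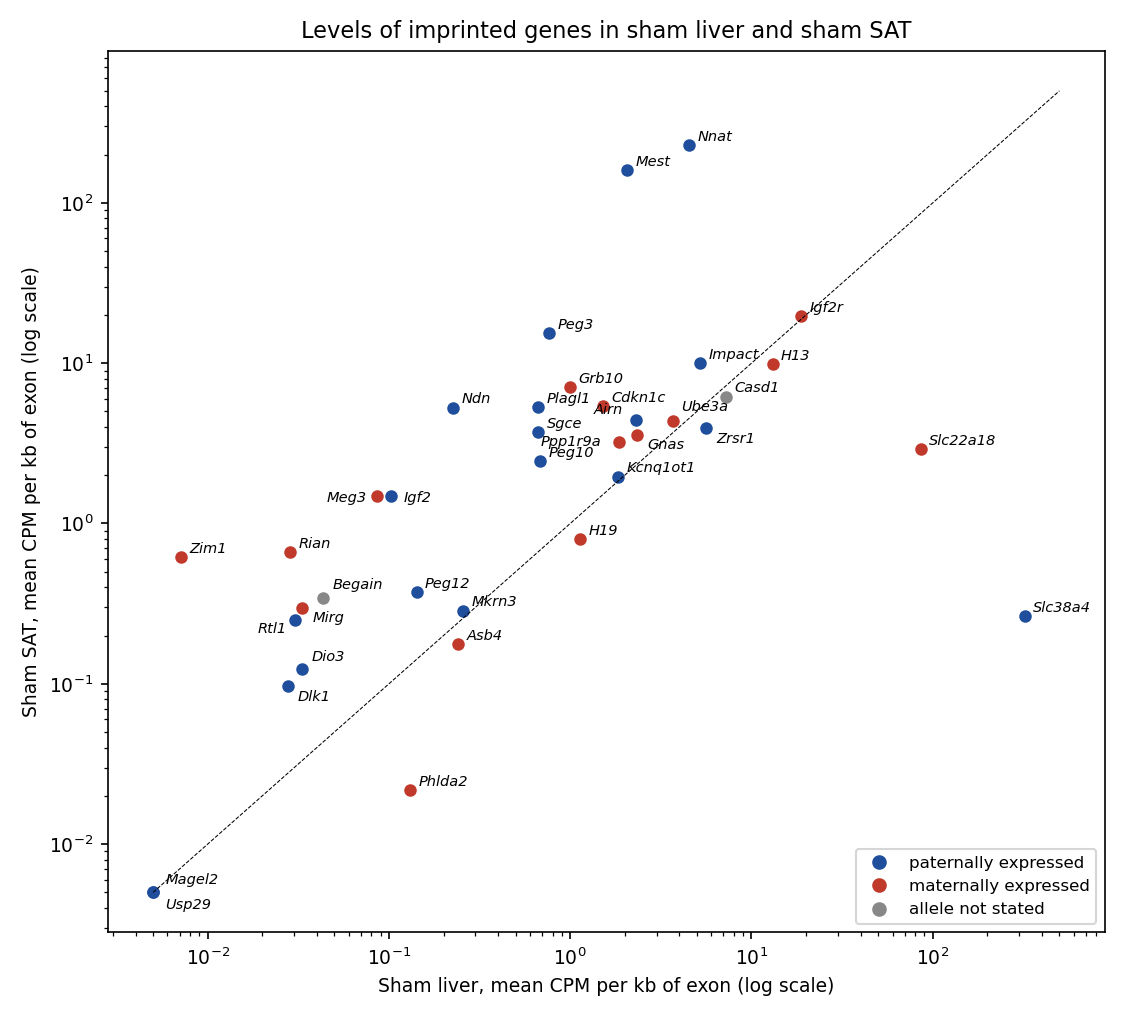
Mean CPM per kb of exon of the 37 imprinted genes in sham liver (x axis) and sham SAT (y axis), both on log scales and both scaled by TMM over the 10 sham libraries; the dashed line marks equal levels and values under 0.005 are drawn at 0.005. Mest and Nnat lie far above the line, and Slc38a4 and Slc22a18 far to the right of it.

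The widest differences toward SAT were those of Zim1 (log2 difference 6.41 ± 0.75), Mest (6.28 ± 0.19), Nnat (5.66 ± 0.28), Rian (4.55 ± 0.36), Ndn (4.53 ± 0.44), Peg3 (4.33 ± 0.32), Meg3 (4.10 ± 0.22) and Igf2 (3.85 ± 0.20). The largest edgeR adjusted p among these 8 was 1.77e-05. Zim1 rests on 7 reads in all sham liver libraries together, with 0 to 4 per library. Its difference ran from 6.06 to 7.27 with 1 library left out, so its place above Mest is not settled. Mest averaged 632 ± 88.2 CPM in sham SAT and 8.14 ± 1.69 CPM in sham liver on this scale, with no overlap. Plagl1 (2.99 ± 0.26), Grb10 (2.83 ± 0.23), Peg10 (1.84 ± 0.29) and Cdkn1c (1.83 ± 0.31) were higher in SAT too, with edgeR adjusted p of at most 0.000348. Of the 5 members called higher in liver, the amino acid transporter Slc38a4 (-10.22 ± 0.72) and Slc22a18 (-4.88 ± 0.23) differed most. Slc38a4 averaged 1369 ± 189 CPM in sham liver and 1.13 ± 1.06 CPM in sham SAT. The other 3 were Zrsr1 (-0.51 ± 0.14), H13 (-0.40 ± 0.08) and Casd1 (-0.23 ± 0.08). These small values depend on the scaling: under upper quartile normalization H13 had -0.29 and Casd1 -0.12. The count was 23 higher and 4 lower without sham SAT 3 and 4, beside 32.9% and 31.2% of all genes, since Zrsr1 had -0.40 ± 0.16 with an edgeR adjusted p of 0.0526. Igf2r (0.06 ± 0.10), Kcnq1ot1 (0.09 ± 0.13), Mkrn3, Asb4 and H19 were not called.

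Partners of the imprinted growth factor genes and proteins that maintain imprints were read from lists of their own. The growth factor partners were ligands, receptors, binding proteins, receptor substrates and the Igf2bp genes, whose proteins bind RNA. Of 13 tested, 12 were higher in VAT removed SAT, with a median of 0.18, beside 49.7% of all genes. In VAT removed liver 15 of 15 were higher, with a median of 0.22, beside 52.2% of all genes. edgeR called none in either tissue. The insulin receptor substrate Irs2 had the smallest p in both, with 0.53 ± 0.16 in SAT and 0.87 ± 0.19 in liver (edgeR adjusted p = 0.243). Irs2 was at 30.7, 31.0, 26.4, 27.3 and 25.3 CPM in sham liver and at 73.2, 33.6, 42.3, 64.2 and 43.9 CPM in VAT removed liver, so the groups did not overlap. Igfals, the subunit that stabilises circulating growth factor complexes, had 0.74 ± 0.24 in liver and the ligand Igf1 had 0.39 ± 0.14. In SAT 9 of 13 partners were higher without sham SAT 3 and 4, beside 52.4% of all genes. Of 24 tested imprint regulators 5 were higher and 19 lower in VAT removed SAT, with a median of -0.13, and none was called. Without sham SAT 3 and 4 the split was 17 to 7. Zfp57, a zinc finger protein that protects imprints, had 0.56 ± 0.25 in all libraries and 0.89 ± 0.25 without those 2, whereas the methylation factors Uhrf1 and Dnmt1 had -0.79 ± 0.37 and -0.40 ± 0.22 in all and 0.01 ± 0.21 and 0.09 ± 0.07 without them. In liver 13 of 23 were higher and none was called.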

How the data were processed

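Ribosomal RNA was removed from the total RNA of both tissues, per the labels' protocols. Per the submitters' processing notes, reads were handled with bcl2fastq, STAR 2.5.1a and featureCounts 1.46 of Subread on GRCm38. The sources used here do not give the annotation, the strand setting or the treatment of multiply mapped reads. The authors deposited raw counts per gene, without normalization. Of 40757 entries, 317 exact repeats were dropped, and second entries of Dlk1 and Rtl1 were 0 in every library. Groups came from the sample titles.

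Each tissue was fitted in edgeR 4.0.16 (R 4.3.3) with filterByExpr by group, TMM and the robust quasi-likelihood test. The sham libraries and all 20 libraries had fits of their own, in which both tissues share the spread of a gene. P-values were adjusted by Benjamini and Hochberg over all genes tested, at a threshold of 0.05. A log2 difference is given with its SE and a level with its SD (n = 5). The edgeR SE is the size of the log2 difference divided by the square root of its quasi-likelihood F statistic. Alternatives were DESeq2 1.42.0, limma-voom (limma 3.58.1), other normalizations and filters, a replicate block and libraries left out. The code was tested on simulated data. Exon lengths came from GENCODE M21. Values by library are given, in the tissue of the ranking, for members with a mean of at least 1 CPM in a group that were among the 10 smallest p-values in SAT (with or without sham SAT 3 and 4), the 6 smallest in liver or the 6 highest per kilobase in either tissue, and other members by means or ranges; of other lists up to 4 genes per tissue with the smallest p are named; members and lists were chosen with earlier results of these data known. Reads could be shared where genes overlap without a known strand: Airn with Igf2r and Mas1, Kcnq1ot1 with Kcnq1, Nnat with Blcap, Mest with Copg2, Zrsr1 with Commd1 and Ube3a with Snhg14. The same holds for Igf2 with Igf2os, Gnas with Nespas and Usp29 with Zim3. H13 overlaps Mcts2 on the same strand. Overlaps with genes of Gm, Rik, Mir or Snord names were not checked.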

Additional observations from a re-analysis of the deposited data

Results flagged for a closer look

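In 6 of the 84 groups of 5 values of the named genes, the highest or lowest library stood far from the other 4 by Dixon's criterion; chance alone gives about 1 in 20. Meg3 in sham liver library 2 was 1.60 CPM, against 1.13 to 1.27 CPM in the others. Slc38a4 in VAT removed SAT library 2 was 17.7 CPM, against 0.335 to 1.48 CPM. Airn in sham SAT library 2 was 14.4 CPM, against 19.5 to 21.0 CPM. Mest in VAT removed liver library 2 was 13.2 CPM, against 5.34 to 6.58 CPM. Peg3 in sham liver library 3 was 5.60 CPM, against 8.73 to 9.32 CPM. H19 in sham SAT library 2 was 6.61 CPM, against 0.515 to 1.85 CPM.

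For 3 genes all 5 VAT removed libraries were above the sham mean in SAT and below it in liver. The log2 response in SAT minus that in liver was 1.34 for Meg3, 3.01 for Rtl1 and 0.29 for Igf2r. edgeR gave adjusted p of 0.288, 0.288 and 0.436 for these differences, so none passed over all genes. Without sham SAT 3 and 4 the SAT side held in all 5 libraries for Rtl1 and in 4 of 5 for Meg3 and Igf2r: Meg3 in VAT removed library 3 was 33.6 CPM against a sham mean of 35.6 CPM, and Igf2r in VAT removed library 1 was 223 CPM against 229.9 CPM.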

How the results depend on the processing

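The absence of calls by edgeR in either tissue, and in the difference of responses, held under every alternative tried with it and under limma-voom. DESeq2 called 4 members higher in SAT and 2 with a higher response in SAT. The median difference between sham tissues, 1.76, was 1.86 under upper quartile normalization, which moved the median of all genes from 0.11 to 0.21. It was 1.41 with no filter on low counts, 1.39 with at least 1 CPM in 5 libraries and 2.10 without sham SAT libraries 3 and 4. The median difference of responses, 0.50, was 0.24 without those 2 libraries. Leaving out 1 library at a time gave 1.44 to 1.94 for the tissue median and 0.28 (without VAT removed SAT 2) to 0.55 for the response median. The SAT median of 0.39 ranged from 0.25 (without sham SAT 4) to 0.45, and was 0.38 without the 3 SAT libraries rich in muscle markers, an alternative chosen after seeing the data. Slc38a4 in SAT was -1.22 there.

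The numbers were not taken as pairs, since the labels do not say that equal numbers mark the same mouse. Correlations of same-numbered libraries ran from -0.32 to 0.21 between the SAT groups and from -0.05 to 0.22 between the liver groups. They ran from -0.20 to 0.11 between sham liver and sham SAT and from 0.05 to 0.12 between VAT removed liver and SAT. In the last, 4 of 5 libraries correlated best with their own number. In the liver groups 3 of 5 did, though sham and VAT removed livers cannot come from the same mouse. These correlations therefore do not tell whether equal numbers mark the same mouse. With a replicate block the SAT median was 0.39 and the liver median -0.08, with 0 calls. The tissue comparison then had 22 members higher and 4 lower, without Ube3a and Casd1, and the response median was 0.37. Genes with few reads, such as Rtl1, Igf2 and Meg3 in liver, are limited by counting error. H19 is limited by the spread between libraries. Neither the allele read nor the cell source of a transcript can be had from total counts of whole tissue.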

Other observations

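Further imprinted genes, outside the list above, were read in the same way. Of 36 such genes 30 had an entry, and 19 of 26 tested were higher in VAT removed SAT, with a median log2 difference of 0.14, or 17 of 26 with 0.07 without sham SAT 3 and 4. In liver 7 of 23 were higher, with a median of -0.05. edgeR called none in either tissue. In SAT the smallest p-values belonged to Phactr2 (0.33 ± 0.10), the adipose and muscle regulator Klf14 (0.71 ± 0.27), the potassium channel Kcnq1 (0.54 ± 0.21) and Tspan32 (-1.57 ± 0.65). Tspan32, known from blood cells, had 0.25 ± 0.16 without sham SAT 3 and 4, the libraries with the most lymphocyte markers. In liver they belonged to the adaptor Gab1 (0.34 ± 0.10), Blcap, which overlaps Nnat (-0.27 ± 0.10), Ddc (-0.46 ± 0.20) and Kcnq1 (0.37 ± 0.18).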
